A study of Mus musculus with 2 samples.

Results

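CD8 T cells of colitis-associated colon carcinomas (CACs) of the mouse were examined here, taken as the 233 T cells in which mRNA of *Cd8b1*, the β chain of the CD8 coreceptor, was detected. They are part of 5737 T cells among 38883 cells of all types. A cell was included when the deposited annotation called it a T cell and when it held at least 1 unique molecular identifier (UMI, the tag that marks 1 captured mRNA molecule) of *Cd8b1* and none of *Foxp3*, the factor of regulatory T cells, or *Trdc*, the constant region of the T cell receptor δ chain. Among 3088 T cells of the library labelled *Mir34a* F/F, 118 met these conditions, and the library labelled *Mir34a* ΔMye held 115 among 2649. Within each library they were compared with T cells that held no UMI of *Cd8b1*, *Cd8a*, *Foxp3* or *Trdc*, called comparison T cells here, which numbered 2221 and 1667. Since *Cd8b1*, *Cd8a*, *Foxp3* and *Trdc* chose the cells, the values of these mRNAs are given as a description only.

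The study asked how loss of the microRNA gene *Mir34a* in myeloid cells affects CACs and the cells that surround the tumor cells. Control mice carried floxed *Mir34a* alleles without Cre, and *Mir34a* ΔMye mice carried the same alleles with *LysM-Cre*, which is active in macrophages, monocytes and neutrophils and not in T cells. Both genotypes were backcrossed to C57Bl/6, and tumors were induced in all mice, aged 6 to 10 weeks at the start, with azoxymethane at 10 mg/kg and 3 periods of dextran sodium sulfate in the drinking water (2.5% in the first periods and 2% in period 3, 5 days each), up to sacrifice on day 110. Per genotype, between 6 and 8 tumors of 3 mice were dissociated and combined, freed of dead cells and loaded as 30000 cells on a droplet instrument that tags the 3′ end of mRNAs. Cells were also labelled with a kit of multiplexing tags (CellPlex), but the annotation used here gives a genotype and no mouse for each cell, so that each genotype is 1 library.

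CD8 T cells recognise peptides on major histocompatibility complex (MHC) class I molecules, which nearly all cells carry, and kill the cells that present them. They release granules with perforin, which opens the membrane, and with granzymes, which are serine proteases, and they secrete interferon-γ and chemokines. In the gut they circulate as naive and memory cells or reside in the epithelium for long periods, where they are held by the integrin CD103.

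The F/F-labelled library was the shallower of both, with a median of 4787 UMIs per cell over all cell types against 7716 in the ΔMye-labelled library. CD8 T cells had a median of 4449 UMIs (range 1758 to 22645) and 9035 UMIs (range 2994 to 29209), and comparison T cells had 3292 and 7594. In total, the CD8 T cells held 625262 and 1253680 UMIs. A cell barcode sequence occurred in both libraries 96 times, and 6 of these belonged to T cells in both. The feature mir34apri, whose name points to the primary transcript of *Mir34a*, had 133 UMIs in macrophages of the F/F-labelled library and 462 in those of the ΔMye-labelled library (0.0683 and 0.139 per 10000 UMIs). The feature crenlslyz2, whose name points to Cre in the *Lyz2* (LysM) locus, had 451 and 172 UMIs in these macrophages (0.232 and 0.0518 per 10000 UMIs). What these features count is not described in the sources used here, and if the names are right both go against the labels. *Lyz2* itself, which the *LysM-Cre* allele disrupts, was at 2.00 and 0.415 per 10000 UMIs in macrophages, lower in the ΔMye-labelled library, a direction that goes with the labels. Neither feature had a UMI in CD8 T cells, and whether the labels were exchanged was not tested. The genotypes are therefore named below by their labels only. With 1 library per genotype no test was possible, and all intervals are exact 95% intervals that cover counting error and not the spread between mice.

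The label of the cells was checked against their mRNAs. The level of an mRNA is given as its UMIs summed over cells per 10000 UMIs of these cells. *Cd8b1* had a level of 3.65 (228 UMIs) in the F/F-labelled and 2.79 (350 UMIs) in the ΔMye-labelled library. Its partner chain *Cd8a*, which the choice of CD8 T cells did not use, was at 2.05 and 1.99 and was detected in 60 and 76 of the cells. *Cd3e*, a signalling chain of the T cell receptor, was detected in 83.1% and 93.9% of CD8 T cells, in 56.6% and 62.9% of comparison T cells, and in 4.0% and 3.07% of epithelial cells, which do not express it (median depth 5315.5 and 6623 UMIs). After thinning each cell to 1000 UMIs these shares were 44.0% and 31.7% in CD8 T cells, 27.0% and 20.2% in comparison T cells, and 0.727% and 0.620% in epithelial cells. The annotation T cell therefore includes comparison cells in which no *Cd3e* was captured, and whether some of them were innate lymphocytes was not tested. *Cd4* was found in 6 and 11 CD8 T cells (5.08% and 9.57%), against 26.6% and 44.4% of comparison T cells.

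The choice of cells rests on few molecules. In the F/F-labelled library 60 of the 118 cells held exactly 1 UMI of *Cd8b1* and the highest count was 9, and in the ΔMye-labelled library 47 of the 115 cells held 1 and the highest count was 14. Outside the choice stood 86 and 82 T cells with *Cd8a* but without *Cd8b1*, *Foxp3* and *Trdc*. *Ccl5*, which encodes a chemokine of effector T cells, had a level of 32.4 in cells with 1 *Cd8b1* UMI, of 65.7 in cells with 2 or more and of 12.2 in cells with *Cd8a* alone in the F/F-labelled library, and of 17.3, 37.4 and 11.9 in the other. *Il17a*, the cytokine of type 17 lymphocytes, was at 2.82 and 1.15 in cells with 1 *Cd8b1* UMI and at 0.0917 and 0.132 in cells with 2 or more. A few T cells with *Cd8b1* were left out for *Foxp3* (4 and 16) or for *Trdc* alone (1 and 2).

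CD8 T cells made up 3.82% (95% interval 3.17% to 4.56%) of the T cells of the F/F-labelled library and 4.34% (3.60% to 5.19%) of those of the ΔMye-labelled library. The intervals overlap, and the order was not the same under all settings. When each cell was thinned to 1000 UMIs, leaving out 84 and 7 shallower T cells, 1.48% and 1.19% of T cells would be chosen, with the F/F-labelled library higher. These are 44.5 and 31.4 expected cells without an interval, and thinning can also let in cells whose *Foxp3* or *Trdc* UMIs are not drawn. With at least 2 *Cd8b1* UMIs the shares were 1.88% and 2.57%, with the ΔMye-labelled library higher. The part of depth in the order was not tested. Before thinning, *Cd8b1* was detected in 3.98% and 5.02% of all T cells, and in 0.276% and 0.345% of epithelial cells.

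In both libraries CD8 T cells had higher levels than comparison T cells of the chemokine *Ccl5*, the granule membrane protein *Nkg7*, the granzymes *Gzmk* and *Gzmm* and the transcription factors *Eomes* and *Tbx21*. Helper and type 17 mRNAs such as *Cd4*, *Maf*, *Il17a* and *Il22* were lower. Not all mRNAs of killing were higher, since *Gzmb* and *Prf1* were not 2-fold higher in both libraries, and *Gzmc* and *Srgn* were lower. Among 8709 genes with a level of at least 0.1 in CD8 or comparison T cells of each library, 67 (0.769%) were at least 2-fold higher in CD8 T cells in both libraries and 232 (2.66%) were at least 2-fold lower in both. These shares of all genes are the background of the counts given for each list below. The median log2 ratio of all these genes was −0.06 in the F/F-labelled and 0.02 in the ΔMye-labelled library. All log2 ratios of CD8 over comparison T cells below are given in the order F/F and ΔMye.

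**Figure D1:**
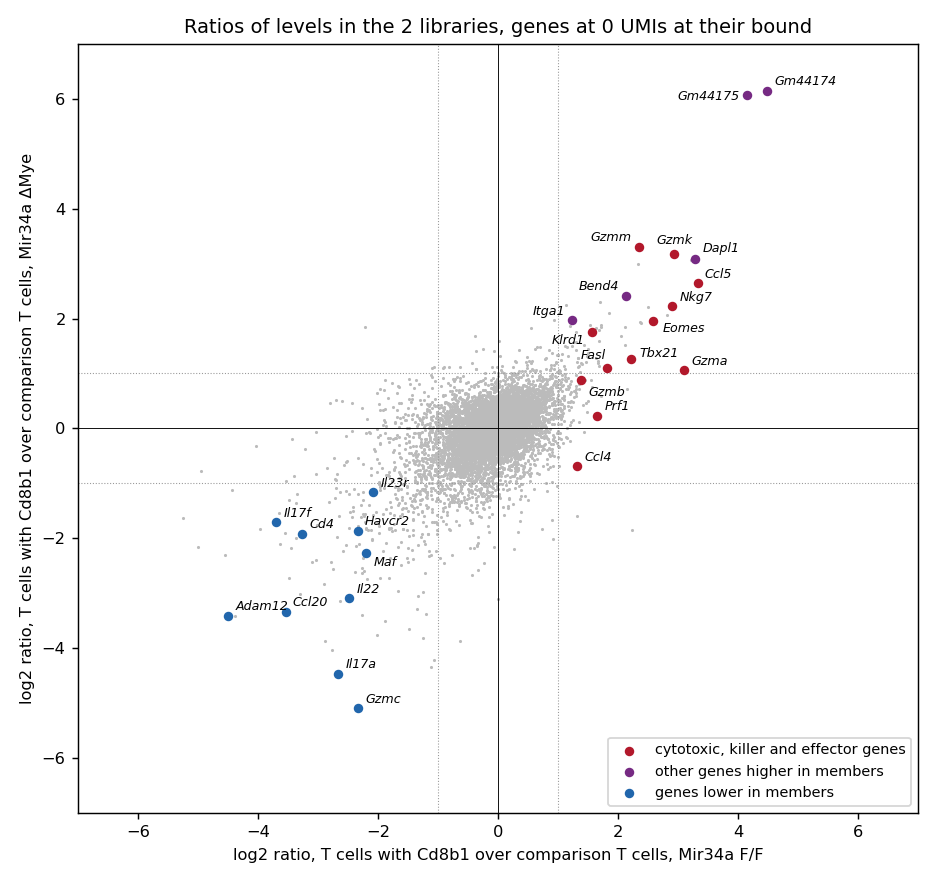
Each point is 1 of the 8709 genes, placed by the log2 ratio of its level in CD8 over comparison T cells, for the library labelled *Mir34a* F/F on the x axis and for that labelled *Mir34a* ΔMye on the y axis, and dotted lines mark 2-fold. *Ccl5*, *Nkg7*, *Gzmk*, *Gzmm* and *Gm44174* lie in the upper right, with both ratios above 2, and *Cd4*, *Maf*, *Il17a* and *Ccl20* in the lower left, while *Ccl4* is above 0 in the F/F-labelled library only.

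Of the cytotoxic granule list, 13 of 17 genes could be compared, 5 were at least 2-fold higher in both libraries (*Gzma*, *Gzmk*, *Gzmm*, *Nkg7* and the protease *Ctsw*) and 1 was lower (*Gzmc*), with median log2 ratios of 1.32 and 0.67. Of these 5, *Nkg7* and *Gzmk* stayed past 2-fold in both libraries under all 11 alternatives. *Ctsw* lost the call with comparison T cells weighted to the depth of CD8 T cells. *Gzmm* lost it with 0.1 added to both levels, without 2 of the clusters described below, and at a level of at least 0.5, which it does not reach. Here and below, a gene that an alternative left out of the comparison counts as having lost its call, whatever its ratio. *Nkg7* had a level of 6.29 in CD8 and 0.843 in comparison T cells of the F/F-labelled library and of 5.12 and 1.09 in the other, log2 ratios of 2.90 (2.72 to 3.08) and 2.23 (2.09 to 2.36). It was detected in 69.5% and 79.1% of CD8 T cells, 12.4% and 19.7% of comparison T cells, and 1.27% and 1.2% of epithelial cells. At 1000 UMIs per cell the shares were 39.2% and 34.7%, 5.36% and 6.57%, and 0.219% and 0.280%.

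*Gzmk*, a granzyme of memory CD8 T cells, was at 0.864 against 0.114 in the F/F-labelled library and at 0.710 against 0.0781 in the ΔMye-labelled library. Its log2 ratios were 2.93 (2.42 to 3.42) and 3.18 (2.76 to 3.60). *Gzmm* rested on 9 and 22 UMIs in CD8 T cells, with log2 ratios of 2.34 (1.06 to 3.49) and 3.31 (2.41 to 4.19). These granzymes were among the mRNAs with the largest ratios in both libraries.

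*Gzma*, a granzyme of killer cells and intraepithelial lymphocytes, was at 7.85 against 0.916 and at 2.54 against 1.22, log2 ratios of 3.10 (2.93 to 3.26) and 1.06 (0.88 to 1.23). Much of this came from few cells, since 1 cell held 43.6% and 36.5% of the *Gzma* UMIs, and in the ΔMye-labelled library *Gzma* was no longer 2-fold higher when cells with *Cd4* were left out or when comparison T cells were weighted to the same depth. *Gzmb*, the granzyme that activates caspases, was at 2.26 against 0.869 and at 1.48 against 0.801, so it was over 2-fold higher in the F/F-labelled library only (log2 1.38 and 0.88). *Prf1*, which encodes perforin, had log2 ratios of 1.65 (0.87 to 2.36) on 20 UMIs and 0.23 (−0.35 to 0.77) on 31 UMIs.

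Not all granule mRNAs were higher. *Gzmc* was at 0.192 against 0.967 in the F/F-labelled library (12 UMIs in CD8 T cells, 75.0% of them in 1 cell) and at 0.0239 against 0.819 in the ΔMye-labelled library (3 UMIs, log2 ratio −5.10 with an interval of −7.38 to −3.55). No UMI of *Gzmd*, *Gzme*, *Gzmf* or *Gzmg* was found in CD8 T cells, and reads of these near-identical granzyme genes may have been split among them. *Srgn*, the proteoglycan that packs granule proteins in many leukocytes, was at 15.4 against 21.8 and at 16.6 against 22.

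**Figure D2:**
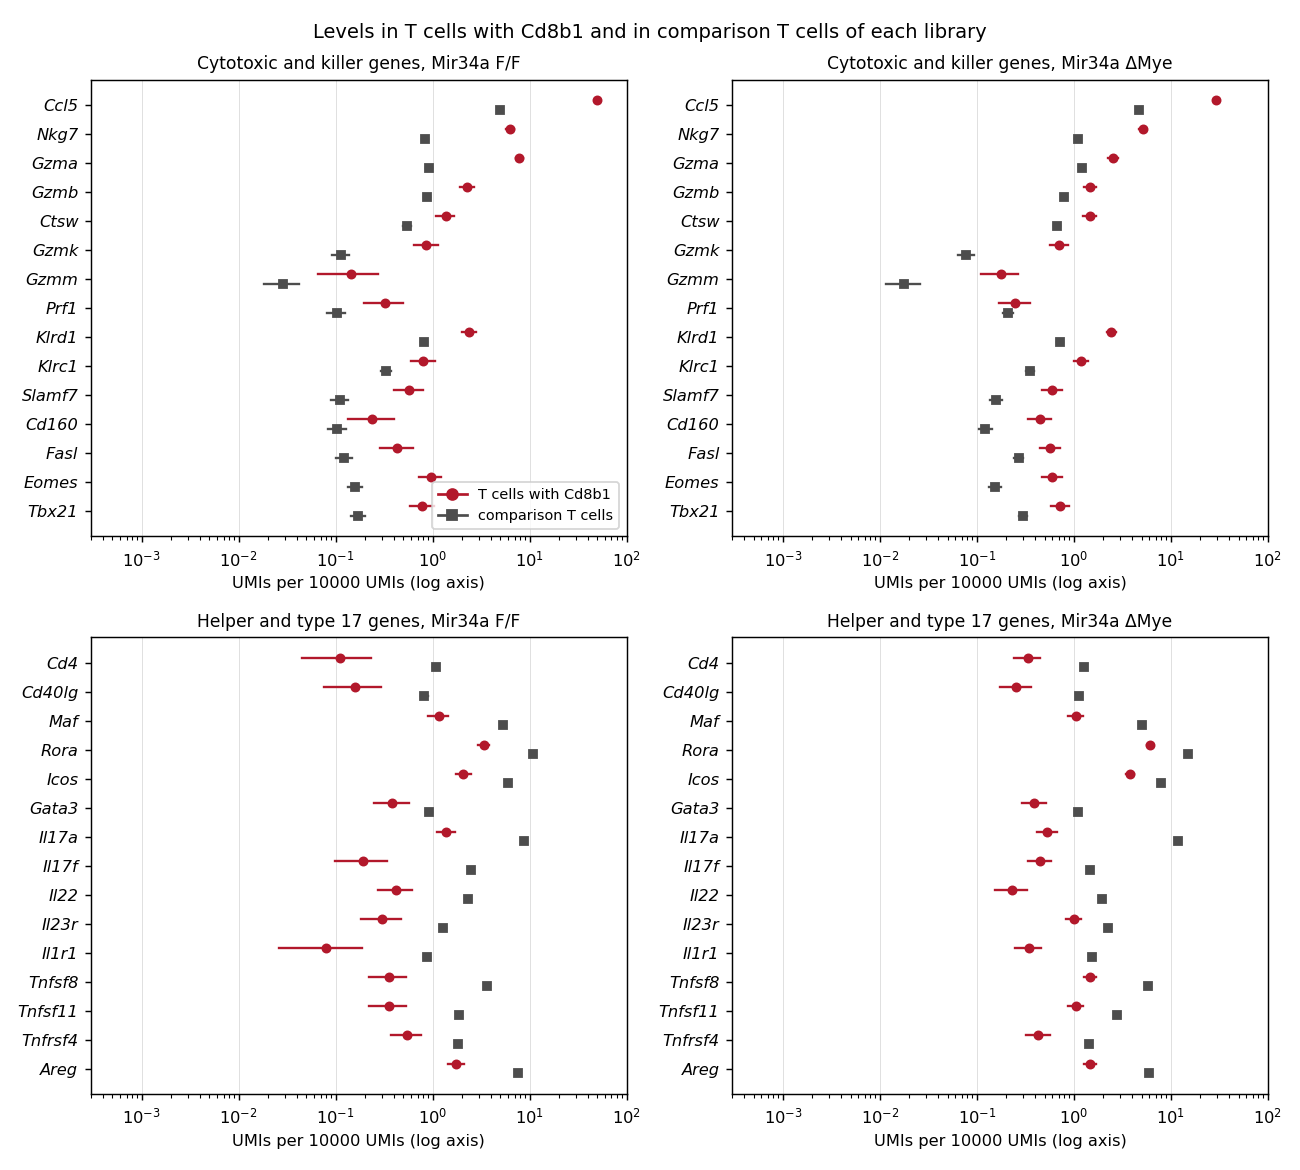
Levels (UMIs per 10000, log scale) of 15 cytotoxic and killer cell mRNAs and 15 helper and type 17 mRNAs are plotted for CD8 T cells (red circles) and comparison T cells (grey squares), with 1 panel for each library and list, with exact Poisson 95% intervals as bars. Red lies to the right of grey for *Ccl5*, *Nkg7*, *Gzmk*, *Klrd1* and *Eomes* in both libraries, and to the left of it for *Cd4*, *Maf*, *Il17a* and *Il22*.

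Of 3 comparable factors of the CD8 lineage and its effector state, 2 were at least 2-fold higher in both libraries (*Eomes* and *Tbx21*, where 0.769% of all genes were higher). *Eomes* was at 0.960 against 0.16 and at 0.598 against 0.155 (log2 2.58 and 1.95). *Tbx21*, which encodes T-bet, was at 0.784 against 0.17 and at 0.726 against 0.302 (log2 2.20 and 1.26). *Runx3*, which silences *Cd4* in the CD8 lineage, differed less, at 2.35 against 1.64 and at 2.64 against 2.02. *Zbtb7b*, its counterpart in the CD4 lineage, had few UMIs in CD8 T cells (10 and 18), with intervals of its ratio that include 0 (−1.68 to 0.30 and −1.26 to 0.21).

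Killer cell receptors followed the granule mRNAs in part. Of 14 genes that could be compared (of 19), 4 were at least 2-fold higher in both libraries (*Klrd1*, *Klrc1*, *Slamf7* and *Cd160*, where 0.769% of all genes were higher) and none was 2-fold lower in both, with median log2 ratios of 1.04 and 0.64. Of these 4, *Cd160* lost this call under 3 of 11 alternatives. Among them were comparison T cells weighted to the depth of CD8 T cells and a level of at least 0.5, which it does not reach. *Klrd1* (CD94) was at 2.38 against 0.811 and at 2.44 against 0.719, and its partner *Klrc1* (NKG2A), with which it forms an inhibitory receptor, was at 0.800 against 0.328 and at 1.19 against 0.354. Reads of *Klrc1* and its near-identical neighbour *Klrc2* may have been confused, and *Klrc2* had log2 ratios of 1.26 and 0.68.

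*Slamf7*, a receptor of killer and plasma cells, was at 0.576 against 0.111 and at 0.598 against 0.158. *Cd160*, a receptor of intestinal intraepithelial lymphocytes, was at 0.240 against 0.104 (15 UMIs) and at 0.447 against 0.123. In contrast, *Tyrobp* and *Fcer1g*, adaptor chains of natural killer and myeloid cells, had log2 ratios of −0.38 and −1.32, and of −0.34 and −0.80.

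Among secreted effectors, *Ccl5* was the most abundant. Its level was 49.8 against 4.99 in the F/F-labelled library (3113 UMIs in CD8 T cells) and 29.4 against 4.71 in the ΔMye-labelled library (3692 UMIs). The log2 ratios were 3.32 (3.25 to 3.39) and 2.64 (2.58 to 2.70). *Ccl5* was detected in 78.0% and 73.9% of CD8 T cells, 16.6% and 23% of comparison T cells and 6.48% and 6.70% of epithelial cells. At 1000 UMIs per cell these shares were 68.5% and 61.3%, 10.3% and 11.6%, and 1.26% and 1.40%.

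The other chemokines of the list did not share this pattern. *Ccl4*, a chemokine of activated T cells, was at 2.48 against 0.996 in the F/F-labelled library and at 1.07 against 1.73 in the ΔMye-labelled library. *Ccl3* had log2 ratios of 0.30 (−0.35 to 0.89) and −0.96 (−1.38 to −0.57), and *Xcl1*, which attracts cross-presenting dendritic cells, of 0.03 and −0.94. A single cell held 49.4% and 32.3% of the *Xcl1* UMIs.

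*Fasl*, the ligand of the death receptor *Fas*, was at 0.432 against 0.123 and at 0.574 against 0.269. *Ifng*, which encodes interferon-γ, was less than 2-fold higher, at 0.864 against 0.484 (log2 0.84, 0.40 to 1.25) and at 0.877 against 0.720 (log2 0.29, −0.01 to 0.57). *Tnf* had log2 ratios of −0.39 (−0.88 to 0.07) and −0.52 (−0.97 to −0.10). *Csf2*, the growth factor GM-CSF, was represented by 0 and 2 UMIs in CD8 T cells and by levels of 0.178 and 0.180 in comparison T cells. Of the 7 comparable genes in this list of death ligands and cytokines, *Fasl* was higher and *Csf2* lower by at least 2-fold in both libraries, and the median log2 ratios were −0.23 and −0.49. *Csf2* lost this call under 4 of 11 alternatives, among them comparison T cells with *Cd4*, and *Fasl* under 2.

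When genes were ranked by the smaller ratio of both libraries, leaving out those found in under 5% of both CD8 and comparison T cells of a library, the largest ratios belonged to a pair of long intergenic non-coding RNAs that lie between the CD8 genes. In the GENCODE annotation of mm10, *Cd8b1* lies on chromosome 6 from 71322788 to 71337494 (plus strand) and *Cd8a* from 71373427 to 71379173 (plus strand), 35933 bases further. *Gm44174* lies between them on the plus strand, from 71353035 to 71373284, and ends 143 bases before *Cd8a*. *Gm44175* lies inside *Gm44174* on the minus strand, from 71354351 to 71360829.

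*Gm44174* was at 0.432 against 0.0193 in the F/F-labelled library (27 and 17 UMIs) and at 0.654 against 0.00923 in the ΔMye-labelled library (82 and 13 UMIs), log2 ratios of 4.48 (3.56 to 5.45) and 6.15 (5.29 to 7.12). *Gm44175*, with 10 and 18 UMIs in CD8 T cells and 8 and 3 in comparison T cells, had log2 ratios of 4.14 (2.65 to 5.68) and 6.08 (4.30 to 8.48). T cells chosen by *Cd8a* alone held *Gm44174* at 0.425 and 0.485, close to the CD8 T cells, whereas T cells with *Trdc* were at 0.0375 and 0.0147 and T cells with *Foxp3* at 0.0132 and 0.0127. How reads in the overlap of these genes, or reads running from *Gm44174* into *Cd8a*, were assigned is not given in the sources used here, so these counts are uncertain. Neither RNA was part of the choice, but comparison T cells were required to lack both CD8 mRNAs of this locus.

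Besides *Gm44174* and *Gm44175*, the 15 genes with the largest ratios in both libraries were *Ccl5*, *Nkg7*, *Gzmk*, *Gzmm*, *Eomes*, *Dapl1*, *Ly6c2*, *Ifngas1*, *Bend4*, *Lcn4*, *Ifi214*, *Wdr95* and *Smpdl3b*. *Ifngas1* is a long non-coding RNA near *Ifng* on the opposite strand of chromosome 10 (118502035 to 118556525, where *Ifng* lies from 118441046 to 118445892), and its level was 0.272 against 0.0295 and 0.144 against 0.0170, on 17 and 18 UMIs in CD8 T cells. *Bend4* was at 0.800 against 0.183 and at 1.21 against 0.227 (log2 2.13 and 2.42), on 50 and 152 UMIs. *Ly6c2*, a surface protein of memory CD8 T cells and monocytes with near-identical neighbours, was at 1.10 against 0.153 and at 0.989 against 0.214.

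Promoters of these leading genes were searched for the letters GGTGTGA, the core bound by T-box factors such as T-bet and *Eomes*, on both strands from 250 bases before to 50 after the start of each gene in RefSeq (GRCm38.p6). This motif was chosen after the levels of *Tbx21* and *Eomes* were seen. Of 11 leading genes with an entry, 3 held the motif, as did 1307 of all 32851 promoters (3.98%). The first count is of genes with the motif in any of their entries and the second of single entries, so the shares are unlike measures. A stretch of each before the RefSeq start is shown 5′ to 3′ on the strand of the gene, with the motif in capitals, because these genes, like *Tbx21* and *Eomes*, were at least 2-fold higher in CD8 T cells of both libraries.
*Nkg7* promoter, chr7:43437108-43437137, plus strand: agggagggggtagggaaGGTGTGAgaagaa
*Gzmm* promoter, chr10:79693576-79693757, plus strand: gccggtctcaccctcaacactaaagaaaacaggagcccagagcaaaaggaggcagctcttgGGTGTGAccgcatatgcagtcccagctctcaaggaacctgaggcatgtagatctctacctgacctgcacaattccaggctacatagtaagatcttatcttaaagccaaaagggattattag
*Gzmk* promoter, chr13:113180966-113181215, minus strand: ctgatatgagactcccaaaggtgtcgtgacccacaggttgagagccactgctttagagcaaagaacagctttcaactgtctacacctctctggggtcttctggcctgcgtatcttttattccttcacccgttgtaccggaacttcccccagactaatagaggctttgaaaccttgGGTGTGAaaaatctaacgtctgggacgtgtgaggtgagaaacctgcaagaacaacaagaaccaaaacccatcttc
The motif began 13 bases before the RefSeq start of *Nkg7*, 189 before that of *Gzmm* and 75 before that of *Gzmk*. In GENCODE each gene also has a transcript that starts further upstream (at 43437073, 79689020 and 113225908), so that the *Nkg7* stretch lies in its first exon and the *Gzmm* and *Gzmk* stretches lie in introns. A match describes the letters only and does not show that a factor binds there.

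Most helper mRNAs of the list were lower in CD8 T cells. Of 18 comparable genes of the CD4 helper list (of 22), 15 were at least 2-fold lower in both libraries and none was higher, with median log2 ratios of −2.28 and −1.72 (2.66% of all genes compared were lower in both). *Cd4* was at 0.112 against 1.08 (7 UMIs) and at 0.335 against 1.27 (42 UMIs). *Maf*, a factor of interleukin-producing helper cells, was at 1.15 against 5.29 and at 1.05 against 5.08, log2 ratios of −2.20 (−2.56 to −1.86) and −2.27 (−2.53 to −2.02).

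*Rora*, *Il17a* and *Il22* of this list, genes of type 17 cells, were each at least 2-fold lower in both libraries. The factor *Rora* was at 3.37 against 10.9 and at 6.17 against 15.1. *Il17a* was at 1.39 against 8.87 and at 0.534 against 11.8 (log2 −2.67 and −4.47), and 66.7% and 37.3% of its UMIs in CD8 T cells lay in 1 cell. *Il22*, a cytokine that acts on epithelium, was at 0.416 against 2.33, with all 26 UMIs in 1 cell, and at 0.231 against 1.97.

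*Il17a* was detected in 7.63% and 13.0% of CD8 T cells, in 25.8% and 33.9% of comparison T cells and in 6.27% and 9.93% of epithelial cells, and at 1000 UMIs per cell in 3.21% and 2.78%, 16.9% and 19.8%, and 1.23% and 2.18%. Of its 87 and 67 UMIs in CD8 T cells, 141 lay in 1 small cluster, number 4 below. *Ccl20*, the ligand of *Ccr6*, was at 0.0800 against 0.935 and at 0.128 against 1.29. *Adam12*, a metalloprotease, was at 0.0320 against 0.727 on 2 UMIs (log2 ratio −4.51, −7.55 to −2.65) and at 0.0957 against 1.02. For *Tnc*, the matrix protein tenascin C, no UMI was found in CD8 T cells of the F/F-labelled library against a level of 0.474, which is at least 9.87-fold lower when 3 UMIs are taken as the limit of a count of 0, and its log2 ratio in the ΔMye-labelled library was −3.01. The other genes among the 15 with the lowest ratios were *Cpe*, *Ppp1r14c*, *Espn*, *Igfbp7*, *Hlf*, *Gm13481*, *Plcl1*, *Neb*, *Pde7b* and *Prickle1*, with log2 ratios from −4.56 to −2.28 and from −3.41 to −2.31 on 1 to 39 UMIs in CD8 T cells.

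mRNAs shared by regulatory T cells were lower too, with 5 of 11 comparable genes at least 2-fold lower in both libraries (2.66% of all genes) and none higher. Cells with *Foxp3* had been left out on both sides, so this is a comparison with other T cells. *Areg*, a growth factor for epithelium, was at 1.76 against 7.61 and at 1.48 against 6.01, and *Ctla4*, an inhibitory receptor, at 2.70 against 7.08 and at 3.26 against 7.69. *Il2ra*, the α chain of the interleukin-2 receptor, was at 0.528 against 2.10 and at 1.46 against 2.95, and was no longer past 2-fold under 3 of 11 alternatives, among them weighting to equal depth and comparison T cells with *Cd4*.

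Checkpoint and exhaustion mRNAs went in both directions. Of 17 genes, 3 had log2 ratios above 0 and 11 below 0 in both libraries. None was 2-fold higher in both libraries and 4 were 2-fold lower (*Havcr2*, *Ctla4*, *Tox2* and *Tnfrsf9*, where 2.66% of all genes were lower), with median log2 ratios of −0.24 and −0.48. *Tnfrsf9* kept this call under 9 of 11 alternatives, losing it with a mean over cells and against comparison T cells with *Cd4*. *Tox2* kept it under 10, all but a level of at least 0.5. *Pdcd1*, which encodes PD-1, was at 0.864 against 0.558 (log2 0.63, 0.20 to 1.04) and at 0.646 against 0.547 (log2 0.24, −0.11 to 0.57). *Havcr2* (TIM-3) was at 0.128 against 0.650 on 8 UMIs and at 0.199 against 0.724 on 25 UMIs. *Lag3* (16 UMIs in each library) had intervals of its log2 ratio from −0.63 to 0.94 and from −1.07 to 0.50, so that a difference was not detectable at this depth.

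Of the naive and central memory list, 2 of 15 genes were at least 2-fold higher in both libraries (*Dapl1* and *Ly6c2*, where 0.769% of all genes were higher) and none was lower, with median log2 ratios of 0.38 and 0.59. *Dapl1* lost this call with at least 2 *Cd8b1* UMIs and at a level of at least 0.5. *Ccr7*, the receptor that leads T cells to lymph nodes, was at 1.92 against 1.17 and at 1.64 against 1.09, and *Lef1*, a factor of naive T cells, at 2.30 against 1.33 and at 3.06 against 1.72. *Il7r*, the receptor for the survival factor interleukin-7, went the other way, at 1.49 against 4.07 and at 3.20 against 4.36.

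Among 15 comparable genes of tissue residency (of 19), the collagen-binding integrin *Itga1* was at least 2-fold higher in both libraries (0.272 against 0.116 on 17 UMIs, and 0.630 against 0.16) and the chemokine receptor *Cxcr6* at least 2-fold lower (0.544 against 1.17, and 0.909 against 2.23). *Itga1* lost this call under 2 of 11 alternatives, with 0.1 added to both levels and at a level of at least 0.5, and *Cxcr6* under 3, among them at least 2 *Cd8b1* UMIs. *Itgae*, the CD103 chain that binds E-cadherin of epithelial cells, was at 0.784 against 0.492 and at 0.718 against 0.497. *Zfp683* (Hobit), a factor of resident lymphocytes, had no UMI in CD8 T cells. Of cytokine and chemokine receptors, 3 of 16 were lower in both libraries (*Il2ra*, *Il18r1* and *Ccr6*) and none higher, and *Il18r1*, like *Il2ra*, lost the call under 3 of 11 alternatives. *Ccr6* kept it under 9, losing it with 0.1 added to both levels and at a level of at least 0.5.

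Some groups of mRNAs showed no gene past 2-fold in both libraries in either direction. These were the 14 genes of the T cell receptor complex (median log2 0.22 and 0.25), 22 genes of the cell cycle (0.30 and 0.59), 18 of the interferon response (0.20 and 0.08), 13 of MHC class I presentation (0.09 and 0.23) and 18 of integrins and the cytoskeleton (−0.06 and −0.15). Of 13 immediate early genes only *Dusp2*, a phosphatase that acts on kinases downstream of the T cell receptor, was past 2-fold, at 1.5 against 0.614 and at 1.66 against 0.619. Of 5 comparable γδ T cell genes, *Tcrg-C2* was higher (13 and 37 UMIs) and *Tcrg-C1* and *Blk* were lower, and reads of the near-identical *Tcrg* constant genes may have been split. *Tcrg-C2* lost the call under 3 of 11 alternatives, among them at least 2 *Cd8b1* UMIs, and was higher still in T cells with *Cd8a* alone (0.818 and 0.970 against 0.208 and 0.295). Of 8 natural killer and innate lymphoid genes, *Klrb1c*, *Klrb1b*, *Gata3* and *Kit* were lower (where 2.66% of all genes were lower) and none was higher. Against comparison T cells with *Cd4*, however, *Klrb1b* and *Klrb1c* turned to log2 ratios of 0.23 and 2.20 in the ΔMye-labelled library, and *Klrb1c*, like *Blk*, stayed past 2-fold under 5 of 11 alternatives.

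mRNAs of other cell types were found in both sets of T cells. The summed level of 10 epithelial markers was 29.2 in CD8 and 38.6 in comparison T cells of the F/F-labelled library, and 17.7 and 20.9 in the ΔMye-labelled library. For macrophage markers it was 10.9 and 9.06, and 5.32 and 6.81, with *Lyz2* at 2 and 0 UMIs and *Adgre1* at 3 and 7 UMIs in CD8 T cells. For B and plasma cell markers it was 20.9 and 25.8, and 40.9 and 49.8, mostly from *Igkc* and *Igha*, with *Cd79a* at 0 and 14 UMIs. Neutrophil markers summed to 5.09 and 9.79, and 6.17 and 7.21 (1 of 6 comparable genes, *Il1r2*, was 2-fold lower in both), mast cell markers to 4.03 and 6.95, and 4.21 and 10.2 (*Cpa3* and *Kit* lower), and dendritic cell markers to 0.496 and 0.513, and 0.471 and 0.635 (*Zbtb46* lower). *Cpa3* and *Zbtb46* each lost the call under 4 of 11 alternatives, among them weighting to equal depth. Erythroid markers, of which none could be compared gene by gene, summed to 0.352 and 5.34, and 0.0558 and 0.0738. The part of this RNA in the ratios above was not tested.

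Other T cells of the same libraries showed which of these features CD8 T cells shared. T cells with *Cd8a* but no *Cd8b1* (86 and 82 cells, median depth 6523 and 12944 UMIs) also had high *Nkg7*, at 4.73 and 4.03, and higher *Klrd1*, at 6.73 and 6.02, than CD8 T cells, at 2.38 and 2.44. They differed from CD8 T cells in *Cd7* (7.64 and 8.98 against 1.09 and 0.925), the adaptor *Fcer1g* (5.66 and 6.22 against 1.02 and 0.750), the factor *Ikzf2* (20.6 and 34.4 against 4.40 and 5.67) and *Klra7*, a receptor of natural killer cells (1.07 and 1.58 against 0.0160 and 0.0319). Conversely, *Gzmk* was at 0.110 and 0.140 and *Ly6c2* at 0.0472 and 0.289 in T cells with *Cd8a* alone, both below the CD8 T cells in either library.

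T cells with *Trdc* (198 and 187 cells) held more *Gzmb*, at 4.48 and 3.51, than CD8 T cells, at 2.26 and 1.48, and more *Il17a*, at 19.2 and 16.3. Their *Gzma* was at 8.53 and 5.37, and that of T cells with *Cd8a* alone at 8.29 and 4.64, against 7.85 and 2.54 in CD8 T cells, with overlapping intervals in the F/F-labelled library. The share of cells with *Gzma* ran the other way. It was 10.6% and 11.8% with *Trdc* and 5.81% and 13.4% with *Cd8a* alone, against 16.9% and 23.5% of CD8 T cells. Other mRNAs higher in CD8 than in comparison T cells were higher still in T cells with *Cd8a* alone, which were at 3.41 and 3.26 for *Ctsw*, at 0.975 and 1.68 for *Cd160*, at 0.818 and 1.24 for *Itga1* and at 1.09 and 2.05 for *Bend4* (intervals overlap for *Bend4* in the F/F-labelled library). *Ccl5* was highest in the CD8 T cells, at 49.8 and 29.4, followed by T cells with *Cd8a* alone at 12.2 and 11.9, T cells with *Trdc* at 7.62 and 6.61, comparison T cells at 4.99 and 4.71, and T cells with *Foxp3* (465 and 598 cells) at 2.40 and 1.51. This order was the same in both libraries. These are descriptions of 1 library each.

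**Figure D3:**
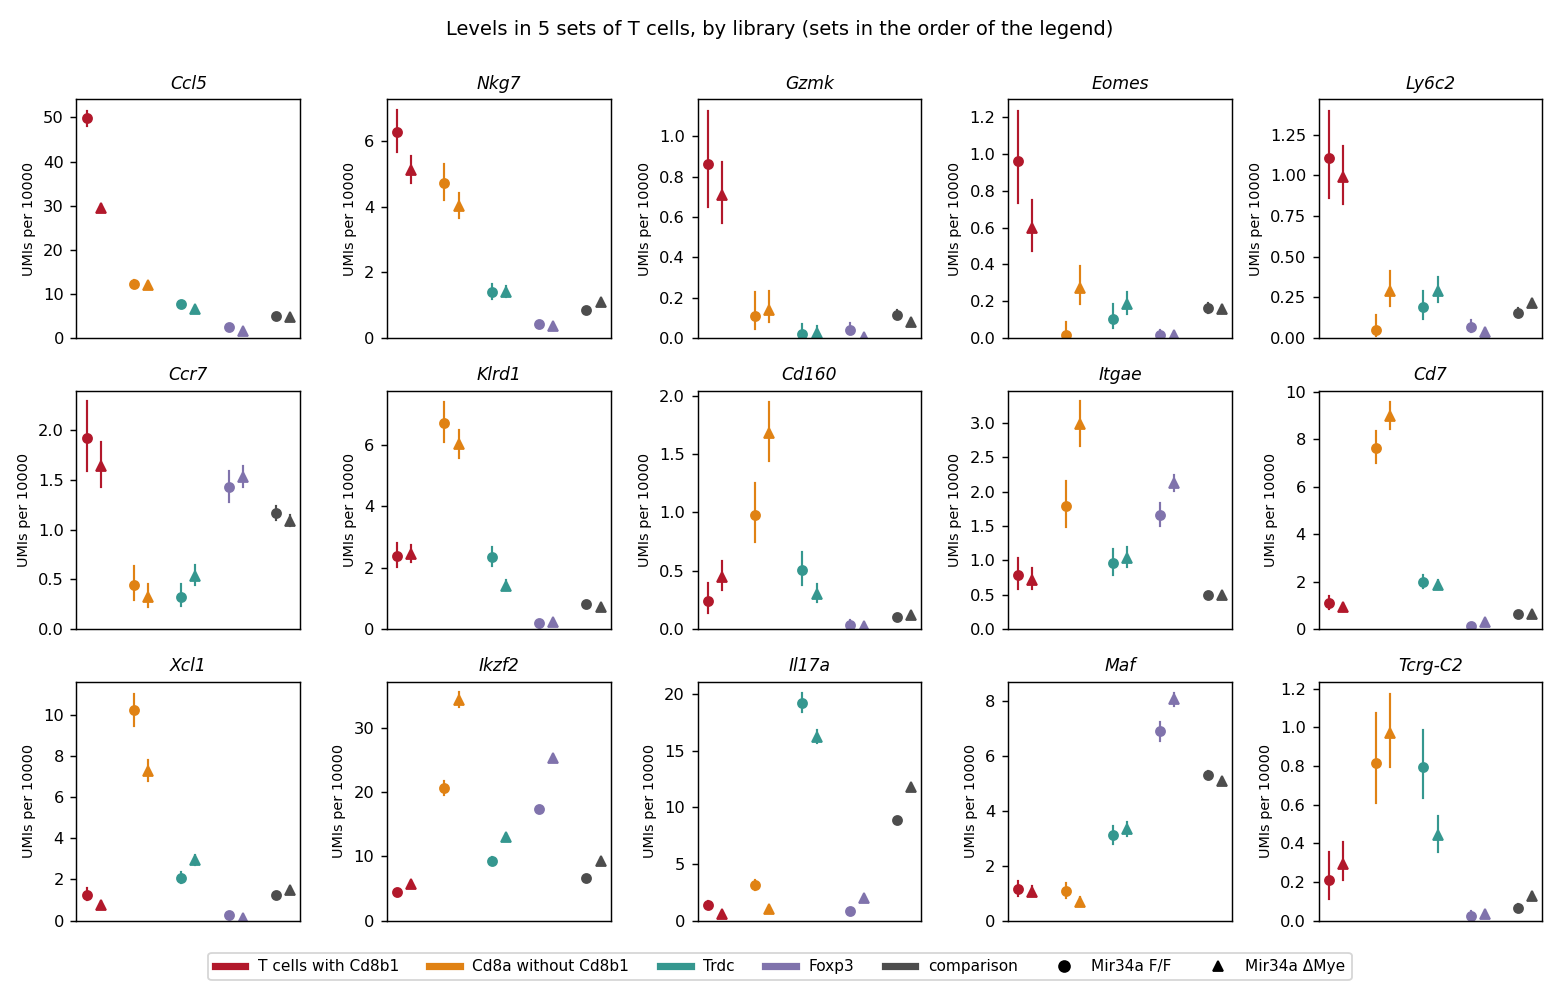
Levels (UMIs per 10000, linear axes from 0) of 15 mRNAs are plotted for CD8 T cells, T cells with *Cd8a* alone, T cells with *Trdc*, T cells with *Foxp3* and comparison T cells, with circles for the library labelled *Mir34a* F/F and a triangle for the library labelled *Mir34a* ΔMye. *Ccl5*, *Gzmk*, *Eomes* and *Ly6c2* peak in CD8 T cells, while *Cd7* and *Klrd1* peak in T cells with *Cd8a* alone and *Il17a* in T cells with *Trdc*.

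Within the CD8 T cells, effector mRNAs were found together in many cells. *Gzmk* was detected in 31 and 39 cells, of which 30 and 39 also held *Ccl5*, which 92 of all 118 and 85 of all 115 cells held. *Nkg7*, held by 82 and 91 cells in all, was found in 29 and 37 of the cells with *Gzmk* and in 35 and 31 of the 38 and 31 cells with *Gzmb*. *Gzma* was found in 20 and 27 cells and *Il17a* in 9 and 15, and no cell held both.

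Markers of lymph node homing and of residence were counted in the same way. Of 38 and 48 cells with *Ccr7*, 27 and 29 held *Lef1*, and 0 and 7 held *Cd160*. Among all CD8 T cells, *Lef1* was held by 55 of 118 and 68 of 115 and *Cd160* by 10 and 24, so that the share with *Lef1* in the ΔMye-labelled library was close to that of all its CD8 T cells. Of 25 and 28 cells with *Itgae*, 0 and 3 held *Eomes*, which 23 and 35 of all cells held, and 6 and 13 held *Cd160*. Absence of a UMI at this depth does not show absence of the mRNA, and no test was made of these counts.

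Clustering split the CD8 T cells into 5 groups, each with cells of both libraries. Cluster 1 held 46 and 36 cells, cluster 2 held 32 and 30, cluster 3 held 29 and 29, cluster 4 held 8 and 15, and cluster 5 held 3 and 5. The genes of each cluster describe how the cells were grouped and are no test, and the shares were not compared between libraries because genes that define the clusters, such as *Gzma*, differ between them. When genes were not scaled within each library, the cells formed 6 clusters, and the largest held 62 and 14 cells, another 15 and 36 and another 5 and 13. All 23 cells of cluster 4 and all 8 of cluster 5 again fell into 1 cluster each, whereas clusters 1, 2 and 3 were split differently, so these depend on the scaling. Levels below are over both libraries.

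Cluster 1 was intraepithelial resident-like, with 7 of 9 such markers detected and 4 of these 2-fold higher than in the other CD8 T cells (mean log2 1.29). Detection alone did not set it apart, since 8 of the 9 were detected in cluster 5 (mean log2 0.13). All 7 exhausted markers were detected in cluster 1 as well (mean log2 0.61). Cluster 1 held *Gzma* at 11.1, found in 26.8% of its cells, *Itgae* at 1.44 and *Cd160* at 0.773. *Klrd1*, which is not among these markers, was at 3.83, and *Gzmk* was found in 41.5% of its cells. Much of the *Gzma* of cluster 1 lay in the cell with most *Gzma* in each library. Without these cells, the *Gzma* UMIs of all CD8 T cells fell from 491 and 318 to 277 and 202. Cluster 3 was naive or central memory-like, with 7 of 7 markers detected and 4 of these 2-fold higher (mean log2 1.49), *Ccr7* at 4.89 and *Lef1* at 6.76. *Ccl5* was at 16.0 in cluster 3 and at 56.3 in cluster 1.

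Clusters 2 and 4 were left unnamed. Cluster 2 was led by the ribosomal RNA-like *Gm26917* and by epithelial and neutrophil mRNAs such as *Wfdc18*, *Epcam* and *S100a8*, with *Epcam* at 6.25 against 0.742 to 2.38 in the other clusters, and was the shallowest (median 3132 and 7248.5 UMIs). Some of its effector mRNAs were nonetheless high, with *Ccl5* at 62.5, *Nkg7* at 5.98 and *Gzmk* at 1.32. *S100a8* was at 1.65 in cluster 2 of the F/F-labelled library, as in all CD8 T cells of that library. In the ΔMye-labelled library it was at 6.00, against 2.27 in all CD8 T cells, where 1 cell held 46.0% of its UMIs. Cluster 4 was led by *Il23r*, *Il17a*, *Il17f* and *Il1r1*, with *Il17a* at 5.00 against at most 0.135 elsewhere. Its *Cd8b1* was at 1.06 and its *Cd8a* at 0.355, both the lowest of the 5 clusters, its *Maf* was detected in 87.0% and its *Cd4* in 39.1% of cells, and its cells were deep (median 8840.5 and 14428 UMIs). Cluster 5, with 8 cells, was cycling-like, with 7 of 7 markers detected and all 7 2-fold higher (mean log2 3.58), *Mki67* at 7.08 and *Top2a* at 13.5.

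Without the 85 cells of clusters 2 and 4 (40 and 45 cells), 135 of 8731 genes (1.55%) were at least 2-fold higher and 396 (4.54%) lower in both libraries. Of the 67 and 232 genes found with all CD8 T cells, 60 and 198 were among them. This left-out set was chosen after the clusters were seen.

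**Figure D4:**
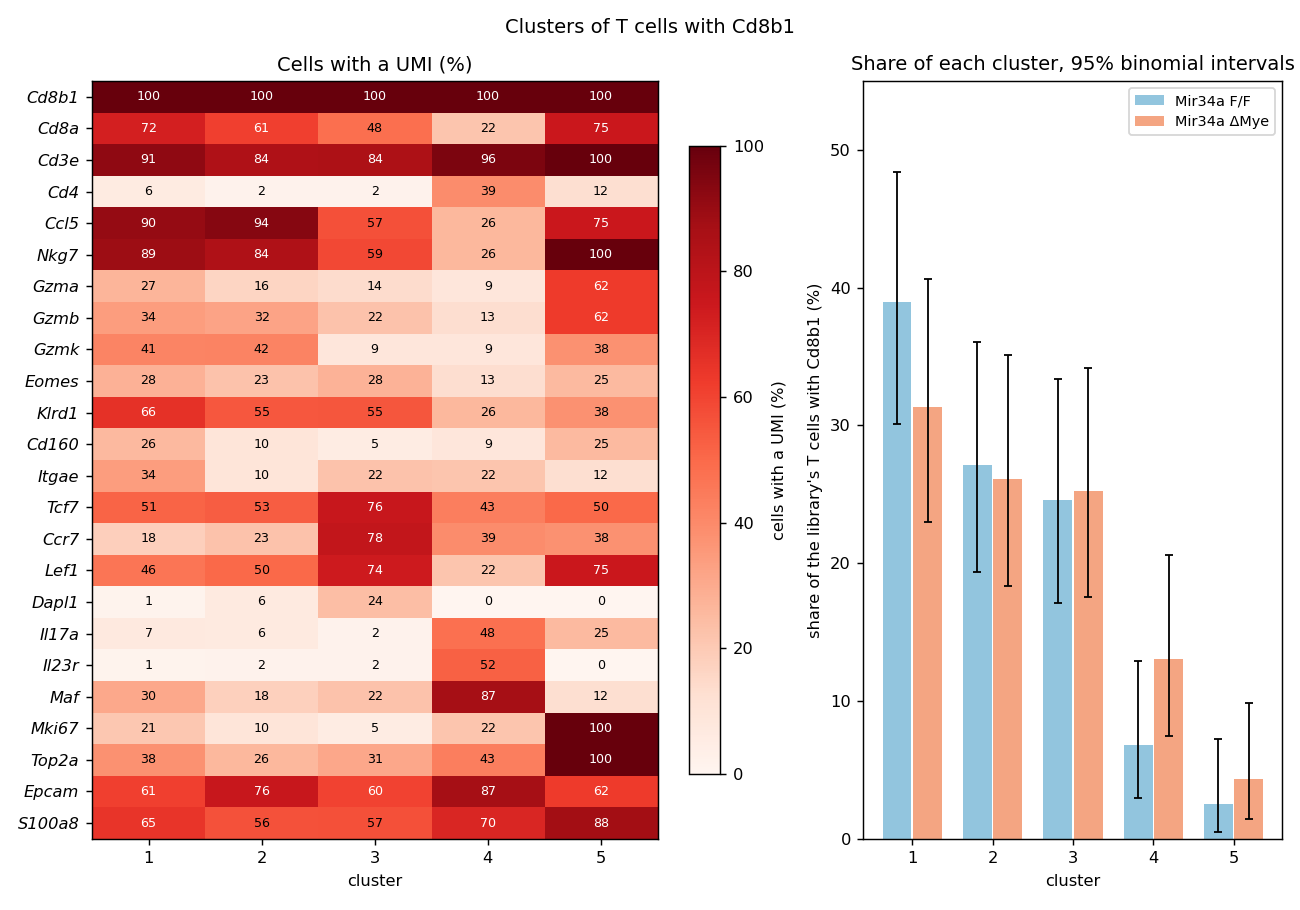
Left, the percentage of cells with a UMI of 24 genes in the 5 clusters of CD8 T cells, as shades of a heat map; right, the percentage of each library's CD8 T cells in each cluster, as bars from 0 with exact binomial 95% intervals. The share is highest in cluster 1 for *Itgae*, in cluster 3 for *Ccr7*, *Tcf7* and *Dapl1*, in cluster 4 for *Il17a* and *Il23r*, and in cluster 5 for *Mki67* and *Top2a*.

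CD8 T cells were also compared between the libraries. Of 9169 genes compared, 449 (4.9%) were at least 2-fold higher and 736 (8.03%) at least 2-fold lower in the ΔMye-labelled library, with a median log2 ratio of −0.02. The balance turned when 0.1 was added to both levels (112 higher and 91 lower) and at a level of at least 0.5 (80 higher and 75 lower of 3711 compared). Most of the differences rest on few UMIs, and the libraries also differed in depth and in the RNA of other cells. Differences are given as the log2 ratio of the ΔMye-labelled over the F/F-labelled library, followed by that of comparison T cells.

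*Gzma*, *Ccl4* and *Ccl5* had a lower level in CD8 T cells of the ΔMye-labelled library. *Gzma* was at 7.85 and 2.54, a log2 ratio of −1.63 (−1.84 to −1.42), against 0.41 in comparison T cells. A single cell held 43.6% of the *Gzma* UMIs of the F/F-labelled library, and without the cell with most *Gzma* in each library the log2 ratio was −1.47, and without cells with *Cd4* it was −2.23. The share of cells with *Gzma* ran the other way, at 16.9% and 23.5%, and was 10.1% and 7.88% at 1000 UMIs per cell. *Ccl4* was at 2.48 and 1.07 (log2 −1.21, against 0.79), and *Ccl5* at 49.8 and 29.4 (log2 −0.76, −0.83 to −0.69, against −0.08). *Gzmb* had a log2 ratio of −0.61 (−1.06 without cluster 4) and *Eomes* of −0.68, whereas *Gzmk* (−0.28, −0.79 to 0.23), *Tbx21* (−0.11, −0.63 to 0.42) and *Klrd1* (0.03, −0.25 to 0.33) had intervals that include 0. Of the 13 genes of the granule list, 2 were at least 2-fold lower, *Gzma* and *Gzmc* (12 and 3 UMIs), where 8.03% of all genes were, and none was higher. Without cluster 4, 3 of 13 were lower, where 7.47% of all genes were, and none was higher.

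*Il7r* was at 1.49 and 3.20 (log2 1.10, 0.78 to 1.45, against 0.10), but 152 of its 401 UMIs in the ΔMye-labelled library lay in the 15 cells of cluster 4. Without cluster 4, an alternative chosen after the clusters were seen, its levels were 1.41 and 2.39 (log2 0.76, 0.39 to 1.15), so that it was no longer past 2-fold. Higher in the ΔMye-labelled library by over 2-fold with and without cluster 4 were *Il12rb2*, a chain of the interleukin-12 receptor (log2 1.26, against 0.96), and *Itga1* (log2 1.21, against 0.47). *Bcl6*, a factor of follicular helper and memory T cells, was at 0.176 on 11 UMIs and at 0.558 on 70 UMIs (log2 1.67, 0.74 to 2.73, against 0.20), and *Klrk1*, which encodes the activating receptor NKG2D, was at 0.304 and 0.901 (log2 1.57, 0.86 to 2.35, against 0.75). Of 17 comparable CD4 helper genes 7 were at least 2-fold higher and 1 lower, and of 16 cytokine and chemokine receptors 6 were higher and none lower, where 4.9% of all genes were higher and 8.03% lower. Cluster 4, which holds much of the *Il17a*, *Il23r* and *Cd4*, had 8 of 118 and 15 of 115 cells, and *Cd4* was found in 6 and 11 cells. Genes of the helper list such as *Il23r* and *Il17a* lead cluster 4. Leaving it out removes their UMIs, so the helper count without it is no test. Without cluster 4, 2 of 11 helper genes were higher and none lower, and 5 of 15 receptors were higher. Of all genes, 5.65% were then higher and 7.47% lower. Without cells with *Cd4*, 3 of 15 helper genes were higher and 2 lower, where 5.49% of all genes were higher and 8.03% lower.

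The genes with the largest differences included mRNAs of other cells. *Iglc2*, an immunoglobulin light chain, was at 0.128 and 0.694 (log2 2.44, against 1.91), beside a summed level of B and plasma cell markers of 20.9 and 40.9. *Defa24*, an antimicrobial peptide of Paneth cells with near-identical copies, and *Tff3*, a peptide of goblet cells, had log2 ratios of 1.71 and 1.63, but 1 cell held 68.5% and 74.7% of their UMIs in the ΔMye-labelled library. *Defa24* turned to −0.21 without clusters 2 and 4, and *Tff3* to −0.085 with a stricter filter on cells, to −0.49 with at least 2 *Cd8b1* UMIs and to −0.11 without cells with *Cd4*. *mt-Nd2*, a mitochondrial mRNA, was at 8.14 and 23.5, and the median mitochondrial share of CD8 T cells was 1.63% and 3.09%.

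*Ifitm3* and *Ifitm2*, which restrict viruses, were at 3.45 and 1.28 and at 2.64 and 0.997 (log2 −1.43 and −1.40, against −0.77 and −0.55), *Mt1*, a metallothionein, at 2.16 and 0.838 (log2 −1.37, against −1.28), and *Hes1*, a target of Notch signalling, at 0.848 and 0.295 (log2 −1.52, against −0.48). Of 8 macrophage markers, 7 were at least 2-fold lower in CD8 T cells of the ΔMye-labelled library, where 8.03% of all genes were. The summed level of macrophage markers was 10.9 and 5.32, against 9.06 and 6.81 in comparison T cells. The epithelial markers were at 29.2 and 17.7, against 38.6 and 20.9. The part of such RNA, and of depth, in these differences was not tested, and mouse and genotype cannot be told apart with 1 library each.

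**Figure D5:**
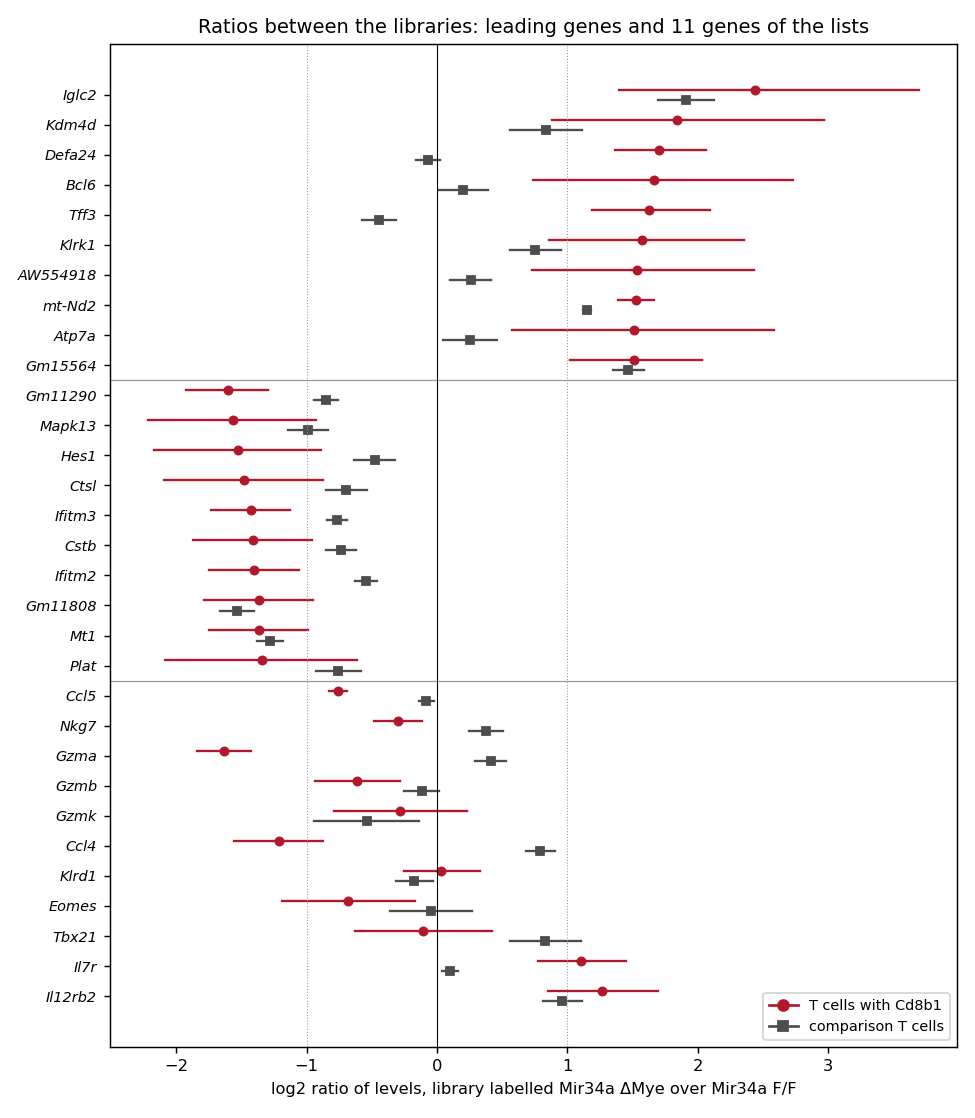
The log2 ratio of the level in the library labelled *Mir34a* ΔMye over that in the library labelled *Mir34a* F/F is plotted for CD8 T cells (red) and comparison T cells (grey), with exact 95% counting intervals, for the 10 genes with the largest differences in each direction and for 11 genes of the lists. *Gzma* and *Ccl4* lie below 0 in red and above 0 in grey, *Iglc2* and *Mt1* lie on the same side of 0 in both, and *Defa24* and *Tff3* lie above 0 in red only.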

How the data were processed

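Each of the genotypes, labelled *Mir34a* F/F and *Mir34a* ΔMye, gave 1 single-cell RNA sequencing library of its CACs. The processing notes of the submitters name Cell Ranger 7.2.0 and the mm10 genome. According to the methods of the study, cells with at most 200 expressed mRNAs or with 25% or more mitochondrial content were discarded, and doublets were removed with Scrublet. By the UMI counts recovered here, 51 and 71 T cells, among them 1 and 3 CD8 T cells, nevertheless had 25% or more of their UMIs from mitochondrial genes, and they were kept. No further doublet caller was run here, and leaving out CD8 T cells with *Cd4* served as an alternative. The authors deposited values on a natural log scale, of 1 plus the UMIs of a gene per 10000 UMIs of its cell, made with LogNormalize of Seurat, and an annotation of library and cell type, which was used as given. All columns of the files were mapped to a library (0 unmapped).

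Inverting the logarithm and scaling each cell by its lowest value returned UMI counts that were whole to within 1.49e-10. Levels are UMIs summed over cells per 10000 UMIs, and ratios are ratios of levels, with exact Poisson intervals for sums, exact binomial intervals for shares and exact conditional binomial intervals for ratios, at 95% and for counting error only. A count of 0 was set to 3 UMIs per library to bound a ratio. Genes were compared between CD8 and comparison T cells when they had a level of at least 0.1 in either set in each library, and between libraries when CD8 T cells of either library reached 0.1. Named are genes of fixed lists, the 15 genes with the largest ratio in each direction by the smaller ratio of both libraries (with a UMI in at least 5% of CD8 or comparison T cells of each library, without the genes that chose the cells) and the 10 with the largest ratio between libraries in each direction (UMI in at least 25% of CD8 T cells and level of at least 0.5 in a library). The CD8 T cells, the gene lists and these rules were chosen with earlier results of these data known. Some genes of the lists are not reported here.

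For clustering, log UMIs per 10000 of 1500 variable genes were scaled within each library, followed by 15 components, 15 neighbours and Leiden clustering (resolution 0.5). Names were given to clusters only when at least 3 markers of a type were detected in 10% of the cells with a mean log2 ratio of at least 1 against the other CD8 T cells. Alternatives were a mean over cells, cells with at least 500 expressed mRNAs and mitochondrial content under 10%, at least 2 *Cd8b1* UMIs, CD8 T cells without *Cd4*, totals that omit 411 mitochondrial, immunoglobulin and ribosomal RNA-like genes, 0.1 added to both levels, a level of at least 0.5, no filter, comparison T cells weighted to the depth of CD8 T cells or restricted to those with *Cd4*, and, for clusters, a resolution of 1 or no scaling. The scripts were tested on simulated data. Python 3.11.15, numpy 2.4.6, scipy 1.17.1, pandas 2.3.3, scanpy 1.11.5, leidenalg 0.10.2 and matplotlib 3.10.9 were used.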

Additional observations from a re-analysis of the deposited data

Results flagged for a closer look

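Ratios of CD8 over comparison T cells had intervals on opposite sides of 0 in the libraries for 5 of 308 genes screened for this, and the difference between the libraries was not tested. *Ccl4* had a log2 ratio of 1.32 in the F/F-labelled and −0.69 in the ΔMye-labelled library. It had 155 and 134 UMIs in CD8 T cells, of which 1 cell held 21.9% and 19.4%. *Defa24* had −0.37 and 1.41, and 68.5% of its UMIs in CD8 T cells of the ΔMye-labelled library lay in 1 cell. *Ms4a7*, a macrophage marker, had 0.97 and −1.04 on 18 and 9 UMIs, of which 1 cell held 38.9% and 22.2%. *S100a10* had 0.22 and −0.15, and *S100a8*, a neutrophil marker, had −0.79 and 0.31, with 46.0% of its UMIs in 1 cell of the ΔMye-labelled library.

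Outside the T cells, *Cd8b1* was present in the cells annotated as dendritic cells, at a level of 0.254 in the F/F-labelled and 0.26 in the ΔMye-labelled library, above the 0.179 and 0.161 of all T cells. It was detected in 15 of 347 (4.32%) and 26 of 431 (6.03%) of these cells. Of the cells with *Cd8b1*, 14 of 15 and 23 of 26 also held *Siglech*, a receptor of plasmacytoid dendritic cells, against 6.93% and 9.88% of dendritic cells without *Cd8b1*, and 14 and 23 held the chemokine receptor *Ccr9*. *Cd3e* was found in 1 and 2 of them and *Cd8a* in 6 and 15. Such cells were not among the CD8 T cells described above, since their annotation is not T cell. Fibroblasts of the ΔMye-labelled library also held *Cd8b1* above the level of T cells, at 0.280 on 19 UMIs in 3 of 60 cells. In fibroblasts of the F/F-labelled library it was at 0.0653 on 2 UMIs.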

How the results depend on the processing

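Genes at least 2-fold apart between CD8 and comparison T cells in both libraries numbered 299, and 148 with 0.1 added to both levels, 125 at a level of at least 0.5, 712 with no filter (313 higher and 399 lower, 44.0% higher in place of 22.4%) and 531 without clusters 2 and 4, an alternative chosen after seeing the data. With comparison T cells that hold *Cd4* it was 351, of which 32.5% were higher. The other alternatives gave 292 to 438. Between the libraries the count was 1185 of 9169 genes compared, and 37.9% of those called were higher. With at least 2 *Cd8b1* UMIs it was 1785 of 9166 (45.2% higher), and with 0.1 added 203 of 9169 (55.2% higher). At a level of at least 0.5 it was 155 of 3711 (51.6% higher), and with no filter 3147 of 13478 (24.6% higher). The others gave 1245 to 1569. The share of CD8 T cells was 1.48% and 1.19% after thinning, and 1.88% and 2.57% with at least 2 *Cd8b1* UMIs. A resolution of 1 gave 8 clusters in place of 5.

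Of 74 genes named for their ratio to comparison T cells, 38 stayed past 2-fold in both libraries under all 11 alternatives, among them *Ccl5*, *Nkg7*, *Gzmk*, *Eomes*, *Tbx21*, *Klrd1*, *Cd4*, *Maf* and *Il17a*. For *Cd4*, the alternatives that chose cells by *Cd4* were bound to keep the call. The same holds for *Il17a* without clusters 2 and 4, since most of its UMIs in CD8 T cells lay in cluster 4. Those past 2-fold under the fewest were *Blk* and *Klrb1c* (5), *Csf2*, *Cpa3* and *Zbtb46* (7), and *Cd160*, *Cxcr6*, *Gzmm*, *Il18r1*, *Il2ra* and *Tcrg-C2* (8). A gene that an alternative left out of the comparison was counted as not past 2-fold there. This applies to genes below a level of 0.5 and, with no filter, to genes with 0 UMIs in a set of cells. The tallies are therefore not a measure of how far ratios moved. Of 1472 values of named genes, 6 changed sign. These were *Klrb1b* (0.23) and *Klrb1c* (2.20) in the ΔMye-labelled library against comparison T cells with *Cd4*, *Defa24* between libraries without clusters 2 and 4 (−0.21), and *Tff3* between libraries with the stricter filter on cells (−0.085), with at least 2 *Cd8b1* UMIs (−0.49) and without cells with *Cd4* (−0.11). The cause was not tested. Depth limits mRNAs with few UMIs, such as *Prf1* and *Lag3*. No paired analysis was possible because there is 1 library per genotype.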
